A study of Mus musculus with 24 samples.

Results

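Among 6 unirradiated old mice, the blood level of Fasl divided the animals into a set of 3 with a high level (replicates 1, 2 and 6) and a set of 3 with a low level (replicates 3, 4 and 5). Fasl encodes Fas ligand, a membrane protein that activated T cells and natural killer cells use to trigger apoptosis in cells carrying its receptor Fas. The sets were defined by a log2 Fasl level above or below 4, so they are groups made from a measured value and not groups of the study, and everything that separates them is given as a description without a test. The values are log2 signals after subtraction of the median of each array, on which a difference of 1 is a 2-fold difference.

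The series held 24 arrays, each of whole-blood RNA from a single male C57BL/6J mouse, and every one of its 4 groups had 6 animals. Young mice were 2 months old and old mice 21 months old, and each age had an unirradiated control group and a group exposed to 4 Gy of x-rays. All blood was taken by cardiac puncture at euthanasia, 24 h after exposure in the irradiated groups. No genetic alteration or other agent was given, so the 6 mice described here shared strain, sex, age and the absence of irradiation. Between 50.3% and 53.8% of the spots of their arrays were well above background, within the range of 43.9% to 64.4% over all 24 arrays.

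Whole blood is a mixture of cells, and its RNA comes from young red cells, platelets, neutrophils, lymphocytes and other cells. T cells recognise antigen through a receptor assembled from V segments, and cytotoxic T cells and natural killer cells kill with granzymes, perforin and Fas ligand. Neutrophils carry S100a8 and S100a9 in large amounts. In ageing mice, blood is known to gain myeloid cells and memory T cells at the cost of naive T cells.

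The arrays of replicates 1 and 6 were much more alike than those of any other pair among the 6 mice. Over 13701 probes their median absolute difference was 0.149, compared with 0.289 for the next closest and 0.66 for the farthest of the 15 pairs, and with 0.0924 to 0.114 between repeat spots within 1 array. Of 15862 genes, 87 differed by over 2-fold between replicates 1 and 6, compared with 842 to 2716 in the other 14 pairs. A pair just as close was found in 1 other group, young irradiated replicates 2 and 5, with a median absolute difference of 0.147. The labels give replicates 1 and 6 as separate mice and they lay on different slides, but whether they were 1 RNA sample measured again was not tested. Counts over all genes and for most lists are therefore also given with the mean of replicates 1 and 6 counted as 1 sample, which leaves 2 samples in the high-Fasl set.

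**Figure D1:**
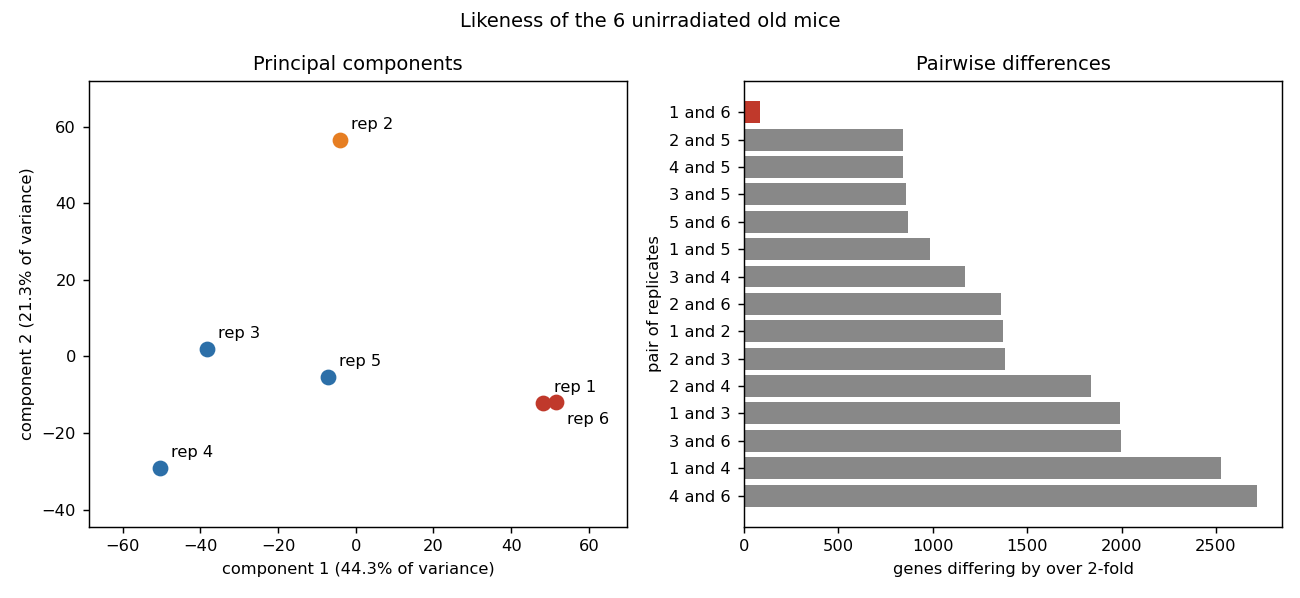
Likeness of the 6 unirradiated old mice. The left panel plots each mouse on principal components 1 and 2 (44.3% and 21.3% of the variance), and the right panel gives for each pair of replicates the number of genes differing by over 2-fold. Replicates 1 and 6 lie together on component 1 (48.3 and 51.6), replicate 2 stands apart on component 2 (56.5), and the bar for replicates 1 and 6 (87 genes) is the shortest.

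The principal components showed the same order. On component 1, replicates 1 and 6 scored 48.3 and 51.6, replicate 2 scored -4.05, and replicates 3, 4 and 5 scored -38.2, -50.4 and -7.17. Replicate 2 thus lay with the low-Fasl mice on the main component and was separated from all others on the next one.

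Fasl was at 5.13, 4.11 and 5.15 in replicates 1, 2 and 6, and at 3.04, 2.27 and 2.34 in replicates 3, 4 and 5. The lowest high-Fasl mouse (replicate 2) and the highest low-Fasl mouse (replicate 3) were the members nearest the limit of 4. In the 6 unirradiated young mice Fasl was between 1.41 and 2.57, with a median of 2.15, below all 3 high-Fasl mice and overlapping the low-Fasl set. Young irradiated mice were at 2.37 to 4.96, and old irradiated mice at 3.69 to 4.54. Fasl rested on 1 probe.

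Bcl11b, a transcription factor required for T cell identity, was higher in the high-Fasl mice. Its level was 4.81, 4.06 and 4.62 in replicates 1, 2 and 6, and 2.70, 3.21 and 3.09 in replicates 3, 4 and 5, a mean difference of 1.5. The sets did not overlap, and the unirradiated young mice (3.85 to 4.12) lay between them, with replicate 2 inside the young range.

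Gzmm, which encodes the serine protease granzyme M, did not follow the split. It was at 9.18 and 9.30 in replicates 1 and 6, but at 4.79 in replicate 2, below the 5.14, 4.93 and 4.84 of the low-Fasl mice. All 6 old mice were above the 2.29 to 2.95 of the unirradiated young mice. The split is therefore described below as a Fasl split, and what was high in replicates 1 and 6 alone is kept apart from what replicate 2 shared with them.

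**Figure D2:**
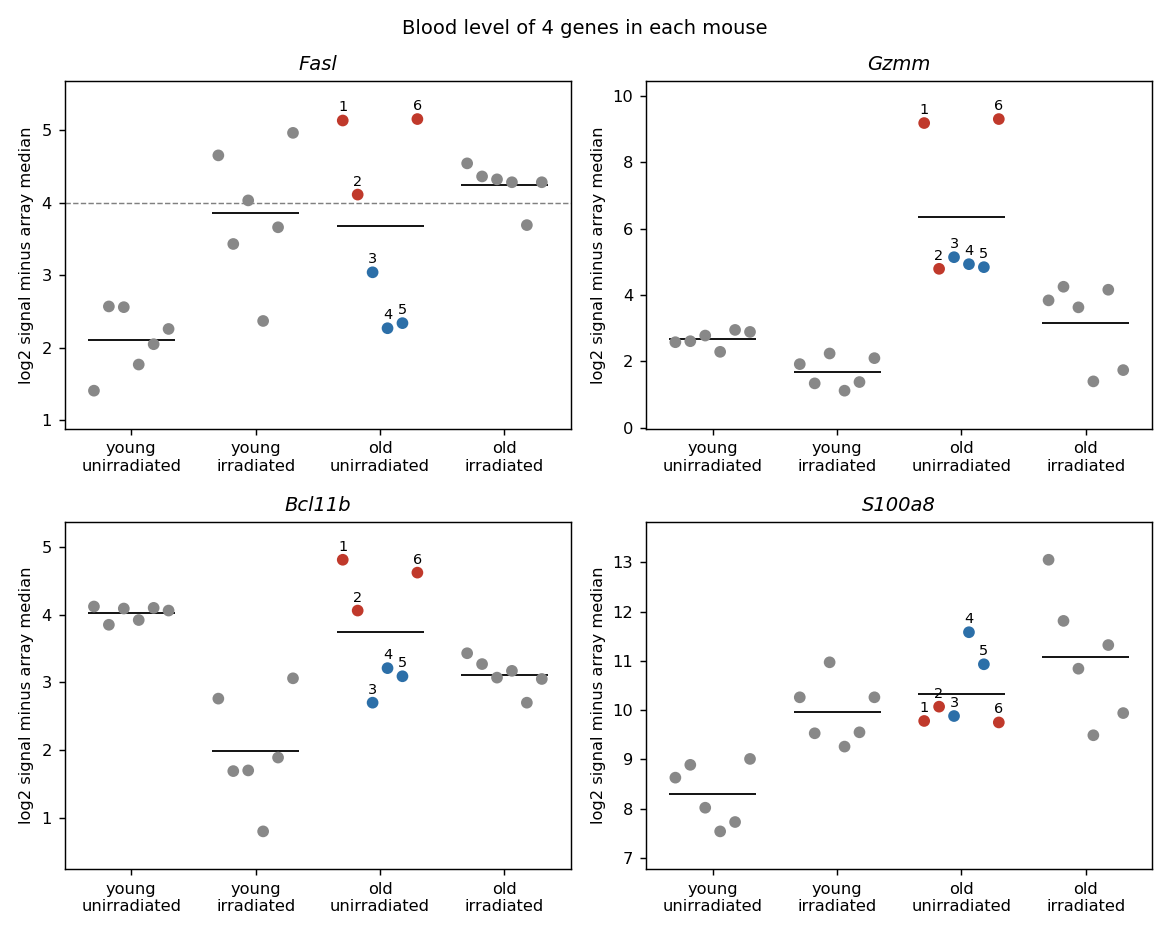
Blood level (log2 signal minus array median) of Fasl, Gzmm, Bcl11b and S100a8, with 1 point per mouse and 6 mice in each of the 4 groups. Gzmm is near 9 in 2 unirradiated old mice and below 6 in all others, while Fasl and Bcl11b also place replicate 2 above the low-Fasl mice.

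Of 17440 genes other than Fasl, 306 (1.75%) were at least 2-fold higher on average in the high-Fasl mice with no overlap between the sets, and 369 (2.12%) were lower by the same rule. These genes are called counted in what follows. The median difference over all genes was 0.03. Of the 306 genes counted as higher, replicate 2 was nearer to replicates 1 and 6 in 184 and nearer to the low-Fasl set in 122. Of the 369 counted as lower, it was nearer to replicates 1 and 6 in 312. With replicates 1 and 6 averaged, 304 genes were higher and 386 lower, and without replicate 2 the counts were 752 and 735. Without replicate 5 they were 493 and 950. Within the slide of replicates 1 to 4 the counts were 478 and 914, and within the slide of replicates 5 and 6 they were 812 and 637.

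Genes of T cells were mostly higher in the high-Fasl mice. Of 23 measured T cell genes, 14 were counted as higher and 0 as lower, and the median difference of the list was 1.21 beside 0.03 over all genes. The mean of the list, after centring each gene on the 6 mice, was 0.82, -0.07 and 0.91 in replicates 1, 2 and 6, and -0.60, -0.50 and -0.55 in replicates 3, 4 and 5. The sets did not overlap, and replicate 2 lay between them. The median difference was 1.55 for replicates 1 and 6 and 0.54 for replicate 2, each against the low-Fasl mice, and 11 of 23 genes were counted with replicates 1 and 6 averaged. In blood as a whole, a lower number of cells of a type and less RNA per cell cannot be told apart.

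Lck, the kinase that starts signalling at the T cell receptor, was at 9.56, 8.33 and 9.68 in replicates 1, 2 and 6 and at 7.76, 7.69 and 7.78 in replicates 3, 4 and 5. Cd3d, a subunit of the receptor complex, was at 8.89, 7.49 and 8.97 against 6.86, 6.94 and 7.04. Thy1, a surface glycoprotein of T cells, was at 10.18, 8.54 and 10.40 against 8.10, 8.13 and 8.13. In all 3 genes the low-Fasl mice were within 0.2 of each other and replicate 2 was closer to them than to replicates 1 and 6. Cd2, an adhesion molecule of T and natural killer cells, overlapped between the sets, at 8.89, 8.50 and 9.07 against 9.06, 7.91 and 8.38. Of 28 genes of T cell receptor signalling, 7 were counted as higher, with a median difference of 0.59, and 6 with replicates 1 and 6 averaged.

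Genes of CD8 T cells and of CD4 and regulatory T cells are given side by side. Of 7 CD8 T cell genes 6 were higher (Cd160, Cd8a, Cd8b1, Crtam, Eomes and Xcl1), with a median difference of 1.29 that was 1.80 without replicate 2. Of 12 CD4 and regulatory T cell genes 3 were higher (Cd5, Gata3 and Rora), with a median difference of 0.12. With replicates 1 and 6 averaged, 5 of 7 and 3 of 12 were counted. Cd8a, a coreceptor chain of cytotoxic T cells, was at 5.68, 4.67 and 5.88 against 3.46, 4.03 and 3.93. Cd4 itself, the coreceptor of helper T cells, was level across the mice, at 5.67, 5.75 and 5.89 against 5.55, 5.76 and 5.94. None of 16 genes of naive T cells and homing was counted, and the chemokine receptor Ccr7 was between 8.70 and 9.23 in all 6 mice.

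Of 18 checkpoint and memory genes 9 were counted as higher (median difference 1.30), and of 23 genes of granzymes and cytotoxic effectors 10 were (median difference 1.06). The difference was below 0 for 4 of the 18 and 6 of the 23, and 9 of each list were counted with replicates 1 and 6 averaged. Eomes, a transcription factor of memory and cytotoxic lymphocytes, was at 6.63, 5.43 and 6.36 in the high-Fasl mice against 4.75, 3.64 and 3.76. Cxcr3, a chemokine receptor of effector T cells, was at 8.02, 6.22 and 8.11 against 5.71, 5.26 and 5.35. Gzmb, which encodes granzyme B, was at 6.41, 5.09 and 6.32 against 4.63, 2.91 and 3.22. The chemokine gene Ccl5 was at 12.59, 11.85 and 12.75 against 11.04, 10.40 and 10.09. In these genes replicate 2 was above every low-Fasl mouse, by 0.46 for Gzmb and 0.81 for Ccl5.

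Not every gene of the list did so. Srgn, the proteoglycan of secretory granules, was at 10.17, 10.19 and 10.31 in the high-Fasl mice against 10.90, 11.08 and 10.78, lower without overlap. Gzma, which encodes granzyme A, was lowest in replicates 1 and 6 (5.82 and 6.09) and was at 9.28 in replicate 2 against 9.36, 6.87 and 7.89 in the low-Fasl mice. Gzmk, another granzyme gene, was highest in replicate 2, at 6.30, with 4.25 and 4.42 in replicates 1 and 6 and 4.92, 2.62 and 2.00 in the low-Fasl mice. Natural killer cell genes were mixed, with 4 of 23 counted as higher (Eomes, Il2rb, Tbx21 and Txk), also with replicates 1 and 6 averaged, and a median difference of 0.51. Ncr1, which encodes a receptor typical of natural killer cells, was at -0.63, 1.38 and -0.55 against 2.33, 0.31 and 1.44, so replicates 1 and 6 were the lowest of the 6. Klrk1, Klrc1 and Klrc3, which encode activating and inhibitory receptors of the NKG2 family, and the costimulatory receptor gene Cd27 were highest in replicates 1 and 6, with replicate 2 no higher than the low-Fasl set. Klrk1 was at 3.37, 0.35 and 3.28 against 0.94, 0.62 and 1.01.

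**Figure D3:**
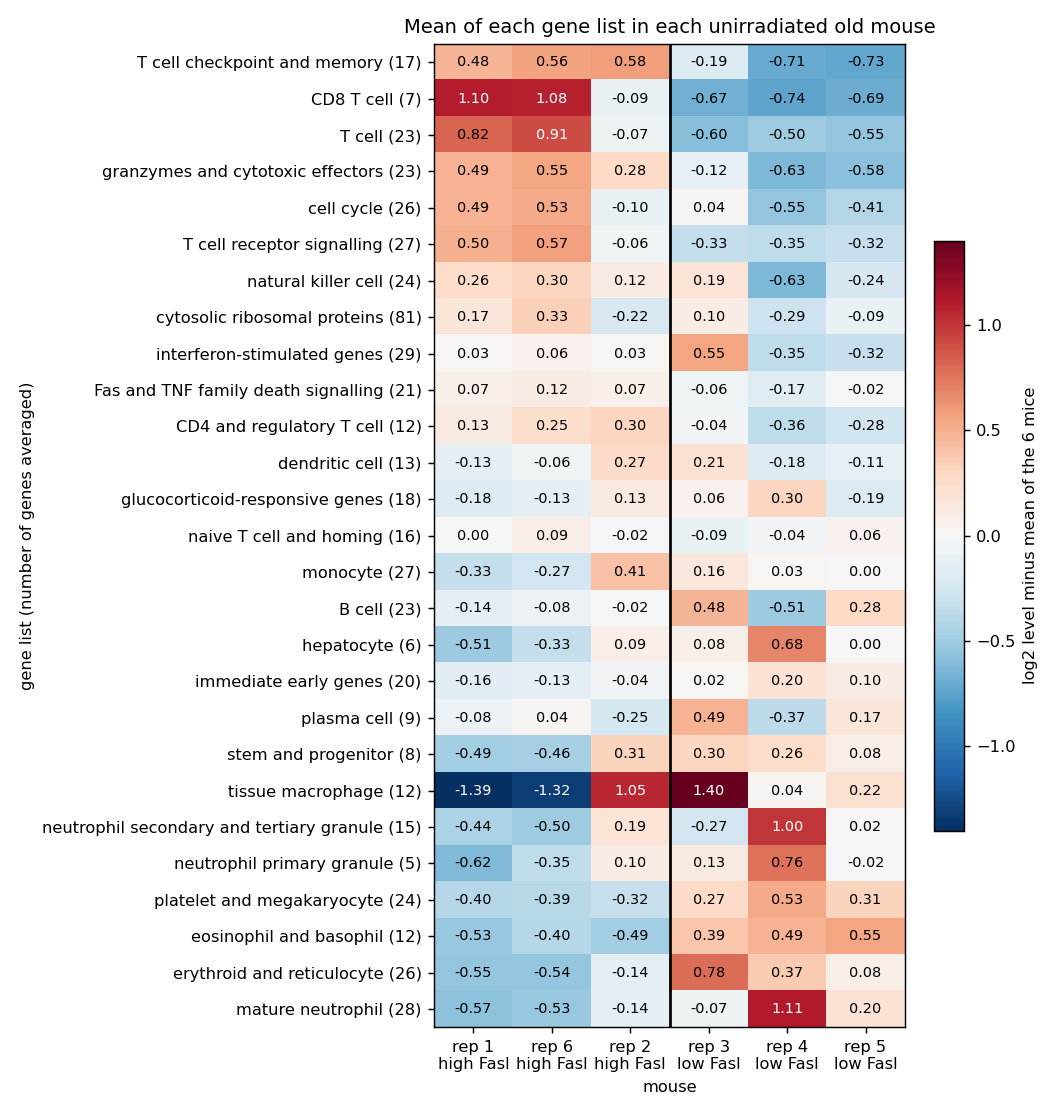
Mean of each of the 27 gene lists in each unirradiated old mouse, after centring each gene on the 6 mice (log2), with the number of genes averaged beside each list and a line between the high-Fasl and low-Fasl mice. T cell and CD8 T cell lists are highest in replicates 1 and 6 (0.82 and 0.91, 1.10 and 1.08), and the mature neutrophil list is highest in replicate 4 (1.11).

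Neutrophil genes went the other way. Of 28 mature neutrophil genes 6 were counted as lower in the high-Fasl mice (Clec4d, Fpr1, Grina, Il1r2, Mxd1 and Slpi) and 0 as higher, with a median difference of -0.88. The mean of the list was -0.57, -0.14 and -0.53 in replicates 1, 2 and 6 and -0.07, 1.11 and 0.20 in replicates 3, 4 and 5. Replicate 4 was far above the others, and replicates 2 and 3 were close to each other. Without replicate 4 the median difference was -0.52, and with replicates 1 and 6 averaged 5 of 28 genes were counted.

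S100a8, a calcium-binding protein of neutrophils, overlapped between the sets, at 9.78, 10.07 and 9.75 against 9.88, 11.58 and 10.93. Slpi, a protease inhibitor, was at 8.91, 9.58 and 9.01 against 10.47, 10.65 and 9.98. Il1r2, a decoy receptor for interleukin 1, was at 3.65, 4.04 and 3.44 against 4.19, 6.42 and 4.87. Replicate 4 was the highest of the 6 mice in all 3 genes. Csf3r, the receptor for granulocyte colony-stimulating factor, was between 9.44 and 9.86 in all 6 mice. Of 16 secondary and tertiary granule genes 1 was counted as lower (Ngp), as was 1 of 5 primary granule genes (Cd63). With replicates 1 and 6 averaged, 1 of 16 and 0 of 5 were counted as lower.

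Erythroid and platelet genes were lower by amounts like those of the neutrophil list, and B cell genes were not counted. None of 23 B cell genes was counted, with a median difference of -0.17, and the B cell mean was highest in replicate 3 (0.48) and lowest in replicate 4 (-0.51), both low-Fasl mice. Of 24 platelet and megakaryocyte genes 3 were counted as lower (F2rl2, Selp and Thbs1), and all 24 had a mean difference below 0, with a median of -0.73. Of 25 erythroid and reticulocyte genes 7 were lower, with a median of -0.86, and the carbonic anhydrase gene Car2 was at 9.68, 10.01 and 9.77 against 12.11, 10.85 and 10.79. With replicates 1 and 6 averaged the same numbers of genes were counted, 3 of 24 and 7 of 25, and the median of the erythroid list was -0.81, equal to that of the mature neutrophil list. The housekeeping genes Actb and Gapdh differed by -0.22 and -0.13.

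Of 26 monocyte genes 1 was counted as lower (Cd14), as were 2 of 12 eosinophil and basophil genes (Hdc and Alox15, median of the list -0.78) and 3 of 14 tissue macrophage genes (C1qa, C1qb and C1qc). None of 12 dendritic cell genes, 10 stem and progenitor genes, 78 cytosolic ribosomal protein genes or 14 hepatocyte genes was counted. Of 26 cell cycle genes 6 were higher (Ccnb1, Cdc20, Kif11, Plk1, Prc1 and Tpx2), although Ube2c and Nusap1 of the same list differed by -0.95 and -0.77. Of 10 plasma cell genes and of 20 genes of Fas and TNF family death signalling, 1 each was counted as higher (Prdm1 and Tnfsf10). Of 30 interferon-stimulated genes 1 was higher (Cxcl10) and 1 lower (Rsad2), and of 16 glucocorticoid-responsive genes 1 was lower (Il1r2). None of 21 immediate early genes was counted. With replicates 1 and 6 averaged the counts of these lists were the same, except for 2. They were 3 of 12 eosinophil and basophil genes lower and 5 of 26 cell cycle genes higher.

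The largest differences were among genes lower in the high-Fasl mice. Retnla, a secreted protein of alternatively activated macrophages, was at 0.87, -0.62 and 1.17 in replicates 1, 2 and 6 and at 6.91, 5.57 and 5.35 in replicates 3, 4 and 5, a difference of -5.47. Prg4, the lubricating glycoprotein lubricin, was at 0.91, -0.74 and 1.19 against 6.24, 4.38 and 4.30. Neither gene was well above background in all 3 high-Fasl mice (2 of 3 for each), so the sizes of these differences are uncertain. Complement gene C4b was at 2.34, 1.77 and 2.47 against 7.12, 4.77 and 4.83. For these 3 genes replicate 2 was the lowest mouse, so the difference did not depend on replicates 1 and 6. Unirradiated young mice spanned much of the same range, with 2.93 to 7.85 for Retnla, 1.32 to 8.06 for Prg4 and 2.07 to 8.32 for C4b.

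Ptgis (prostacyclin synthase), Saa3 (an acute phase protein), Mc3r (a melanocortin receptor) and Garnl3 were also lower. Saa3 was at 2.21, 2.03 and 2.5 against 8.12, 3.77 and 4.42, with all 6 mice well above background. Ptgis and Garnl3 were well above background in 1 of 3 high-Fasl mice and Mc3r in 2 of 3, so no size of their difference is given. Ednrb (an endothelin receptor), Dcn (the matrix proteoglycan decorin), Cxcl13 (a chemokine that attracts B cells) and Tgfb2 were not well above background in any high-Fasl mouse and were well above it in all 3 low-Fasl mice. The complement gene C1qa was at -0.39, 2.80 and -0.44 against 4.88, 3.10 and 3.21, so replicate 2 was close to the low-Fasl set. C1qb and C1qc were counted as lower with it. With normexp background correction the difference of Retnla was -3.60.

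Among the genes higher in the high-Fasl mice, Adora2a, an adenosine receptor gene, was highest in replicate 2, at 3.52, 4.52 and 3.75 against 1.47, 1.64 and 1.36. Sh2d1a, an adaptor protein of T and natural killer cells, was at 6.26, 4.35 and 6.29 against 3.67, 2.97 and 3.38. Kif5c, a kinesin motor protein, was at 2.81, 1.72 and 2.79 against 0.71, -0.11 and 0.42, and all 6 old mice were above the -1.70 to -0.75 of the unirradiated young mice. Hic1, a transcriptional repressor, and the lectin-like receptor gene Klrb1 were higher by 2.36 and 2.11. Wdr95, Lrig3 and Nccrp1 were higher by 2.48, 2.25 and 2.16, with replicate 2 above the highest low-Fasl mouse by 0.16, 0.28 and 0.50. Smco4 and Art2b were well above background in all 3 high-Fasl mice and in none of the low-Fasl mice. Of the 306 genes counted as higher, 194 (63.4%) lay above the whole young unirradiated range in all 3 high-Fasl mice, beside 48.4% of all genes. Of the 369 counted as lower, 159 (43.1%) lay below it, beside 15.8% of all genes. The counted genes were chosen on values of the same 3 mice, so the larger shares are no separate result. The shares over all genes also depend on the scaling, since the median old minus young difference was 0.63 here and -0.02 at the 75th percentile.

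**Figure D4:**
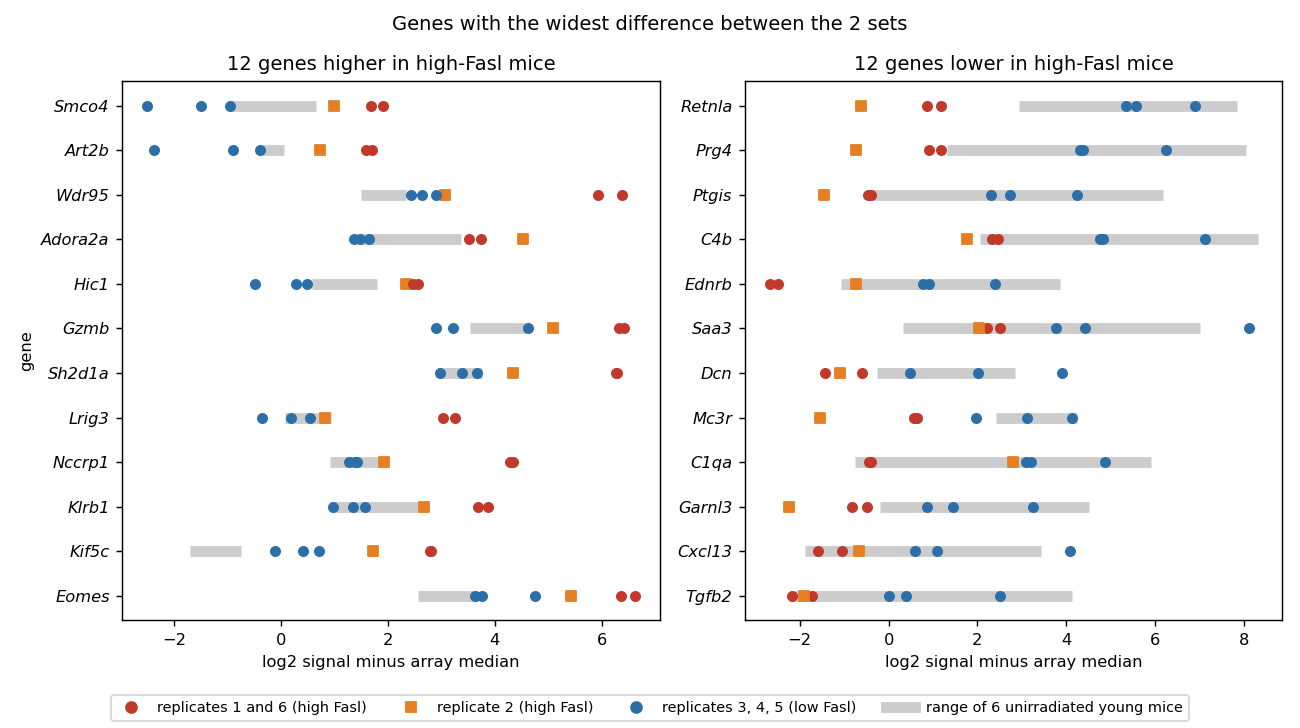
Levels (log2 signal minus array median) in each unirradiated old mouse of the 12 genes with the largest mean difference in each direction among those counted. Replicate 2 lies with replicates 1 and 6 for Retnla and Prg4, and with the low-Fasl mice for C1qa and Wdr95.

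Replicates 1 and 6 shared a further pattern that replicate 2 did not. Of 17440 genes, 653 were higher in both than in each of the other 4 mice, with means differing by at least 1. By the same rule 515 were lower in both. The gap to the nearest of the other 4 mice could be smaller than 1. Fstl1, a secreted glycoprotein, was at 5.84 and 5.99 in replicates 1 and 6, and at -1.0, -0.36, -0.10 and -1.77 in replicates 2 to 5. Nrp2, a receptor for semaphorins, was at 5.76 and 5.82 against 2.63, 2.70, 2.81 and 2.55. Mcpt8, a protease of basophils, was at 1.66 and 1.72 against 3.90, 3.85, 4.91 and 5.35. The levels of replicates 1 and 6 were within 0.2 of each other in each of these 3 genes.

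Some V segments of the T cell receptor also differed between replicates 1 and 6 and the other 4 mice. A V segment is the part of a receptor gene that a T cell joins to other segments, and each T cell clone keeps its own choice. These segments were singled out after their values were seen. Of 58 V segment probes well above background on at least 1 of the 6 arrays, 9 were higher in both replicates 1 and 6 than in the other 4 mice by over 1, and 4 were lower (Trbv3, Trbv10, Trbv13-3 and Trbv15). The median absolute difference over the 58 probes was 0.16 between replicates 1 and 6 and 1.03 between replicates 1 and 2. A related measure over 13701 probes of all kinds was 0.149 and 0.435 for these pairs. Shares over all probes were not counted by the rules used for V segments here and below. Whether V segments differed more than other probes was not tested. The 60-base probes of 4 segments that were high in both mice are given because they carry this pattern, read from the deposited array files with mm9 coordinates, and capitals mark the bases from the codon of the conserved cysteine at the end of the V segment onward, where the probe reaches it.
Trbv1, chr6:40841637-40841696: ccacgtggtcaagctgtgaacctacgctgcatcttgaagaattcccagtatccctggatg
Trbv16, chr6:41102170-41102229: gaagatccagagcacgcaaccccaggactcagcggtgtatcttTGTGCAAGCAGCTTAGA
Trav8n-2, chr14:53966040-53966099: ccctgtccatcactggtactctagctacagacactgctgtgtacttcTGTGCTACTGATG
Trav13D-4, chr14:53692820-53692879: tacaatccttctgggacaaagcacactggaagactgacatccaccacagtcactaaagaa

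Trbv1 was at 6.50 and 6.45 in replicates 1 and 6, and at 1.83, 2.03, 1.76 and 1.74 in replicates 2 to 5. Trbv16 was at 6.56 and 6.58 against 2.05, 2.30, 2.72 and 2.37. Trav8n-2 was at 3.22 and 3.37 against -1.33, -2.63, -0.33 and -1.15. The 2 beta segments were above the unirradiated young mice as well, which were at 1.14 to 2.87 for Trbv1 and 2.29 to 3.43 for Trbv16. Probes of related alpha segments can share targets, and those of Trav8n-2 and Trav8D-1 shared 51 of 60 bases.

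Of 18 other beta V segment probes, 14 (for 13 segments) were lower in both replicates 1 and 6 than in the other 4 mice, by margins of 0.04 to 1.36, and 0 were higher in both. The remaining 4 overlapped, among them 1 of 2 probes of Trbv5. Trbv3 was at 0.11 and 0.29 in replicates 1 and 6, and at 3.31, 1.65, 1.91 and 1.72 in replicates 2 to 5. The constant segment Trbc2, which all beta chains that use it share, was at 9.72, 8.62 and 9.58 in the high-Fasl mice against 7.79, 8.12 and 7.96.

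**Figure D5:**
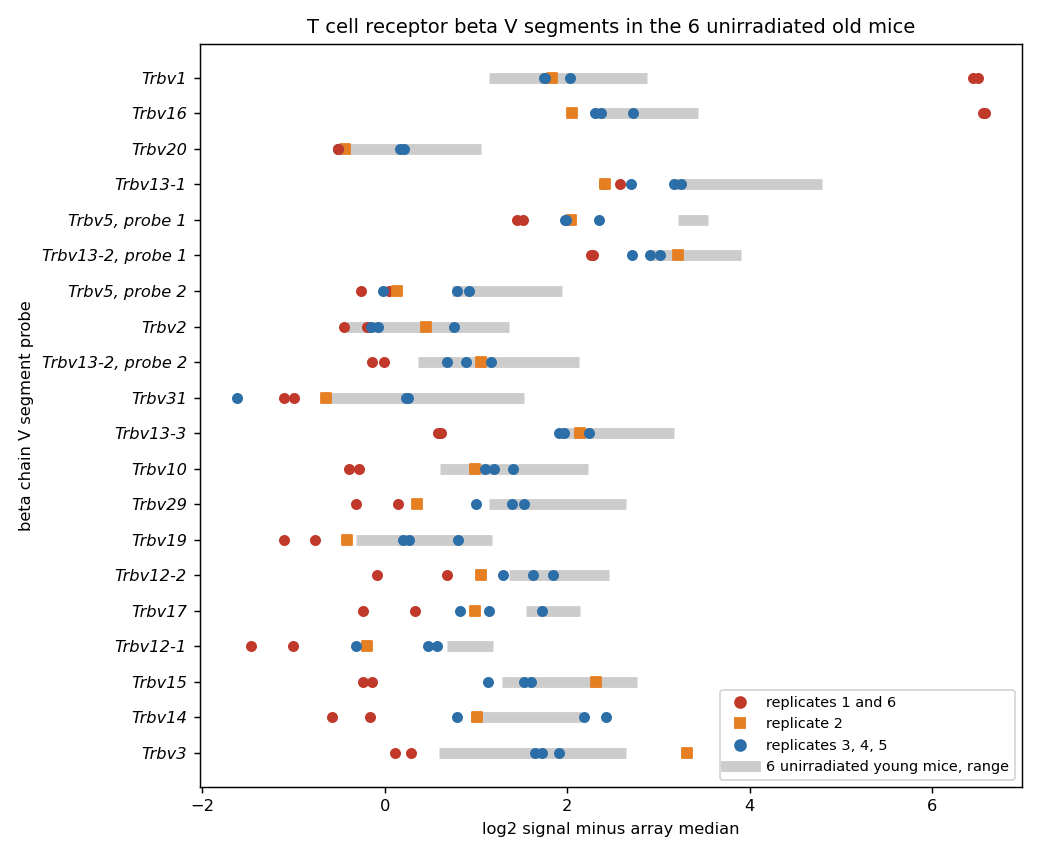
Level (log2 signal minus array median) of each T cell receptor beta V segment probe in the 6 unirradiated old mice. Trbv1 and Trbv16 are above 6 in replicates 1 and 6 and below 3 in the other 4 mice, whereas 14 of the other 18 probes are lowest in replicates 1 and 6.

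Replicate 2 was above the other 5 mice by over 1 in 3 of the 58 V segment probes. One of them was that of Trbv3. Gamma variable 1, a segment of the receptor of gamma delta T cells, was at 3.53 in replicate 2 and between -1.94 and 0.54 in the other 5 mice. Gamma variable 3 was at 3.10 in replicate 2 and at most 0.14 in the others. The probes of both gamma segments share a stretch of sequence, so they are not separate observations.

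Whether the genes of the split also followed Fasl elsewhere was tested in the 18 mice that did not define it, with a limma slope on Fasl and the group as a covariate. Of 17440 genes, 467 (2.68%) rose with Fasl and 158 (0.906%) fell. Bcl11b rose by 0.68 per unit of Fasl (SE 0.142, adjusted p = 0.0215), while Gzmm (0.30, SE 0.314, adjusted p = 0.684) and S100a8 (0.48, SE 0.347, adjusted p = 0.541) did not pass. The genes with the smallest p included Il12rb1, a subunit of the interleukin 12 receptor (0.81, adjusted p = 0.0107), Osbpl3 (0.89, adjusted p = 0.0107) and Cxcr3 (0.86, adjusted p = 0.0133). Ifng, which encodes interferon gamma, also rose (0.89, adjusted p = 0.0133), although it overlapped between the sets of unirradiated old mice.

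By lists, 16 of 23 T cell genes, 4 of 7 CD8 T cell genes, 11 of 23 genes of granzymes and cytotoxic effectors and 8 of 23 natural killer cell genes rose with Fasl, and 0 of any of them fell. The median slope of the T cell list was 0.67 beside 0.11 over all genes. A median of that size was not particular to T cells, since it was 0.72 for the erythroid and reticulocyte list, of which 2 of 25 genes passed, and 0.66 for the platelet and megakaryocyte list. The erythroid median was not stable, at -0.12 with the mean of hepatocyte genes as a covariate and -0.2 with normexp. The T cell median was 0.58 and 0.98 in these settings. None of 23 B cell genes and none of 28 mature neutrophil genes passed. The median slope of the mature neutrophil list was 0.37, with 20 of 28 genes above 0, whereas its median difference in the split was -0.88. That slope depended on the processing. It was 0.18 at the 75th percentile, 0.09 with quantile normalization and 0.07 over bright probes, beside 0.22, 0.1 and 0.15 over all genes. With normexp it was 1.02 beside 0.5. The median slope of the B cell list was -0.22, but 0.68 with normexp and 0.31 with the mean of hepatocyte genes as a covariate. Of 24 platelet and megakaryocyte genes, all of them with a mean difference below 0 in the split, 17 rose with Fasl in the other mice.

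The genes counted in the split were also looked up in this fit. Of the 306 genes counted as higher, 57 (18.6%) rose with Fasl and 1 fell (Fgfr3), but the share with a slope above 0 was 61.8%, the same as over all genes. Of the 369 counted as lower, 1 (0.271%) fell (Cideb) and 17 rose, beside 0.906% falling and 2.68% rising over all genes. The share of these 369 with a slope below 0 was 27.1%, lower than the 38.2% over all genes. The slope calls were not stable. In limma 0 genes passed without young irradiated replicate 1, 4 or 6 (1457, 856 and 1340 rising at an unadjusted p under 0.05), and 0 passed without all young irradiated mice (86 rising) or all unirradiated young mice (1467 rising). With the mean of the hepatocyte genes as a covariate 0 passed (1093 rising at an unadjusted p under 0.05). That list was at 0.19 to 4.67 in the unirradiated young mice and at -0.51 to 0.68 in the 6 old mice, and the genes that fell with Fasl included the liver genes Apoa5 and Pemt. The median slope of the T cell list stayed above 0 under every alternative run, at 0.33 to 0.98. The lowest, without young irradiated mice, stood beside 0.13 over all genes, and the highest, with normexp, beside 0.50. The median of the platelet and megakaryocyte list also stayed above 0, at 0.50 to 1.06.

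Within single groups, 9 relations of Fasl to Gzmm, Bcl11b and S100a8 were tested by exact permutation of 6 mice (two-sided, 720 pairings). Bcl11b correlated with Fasl in young irradiated mice (Pearson r = 0.96, exact p = 0.00417, adjusted p = 0.0188) and in old irradiated mice (r = 0.95, exact p = 0.00417, adjusted p = 0.0188). Spearman's rho was 0.94 in both (exact p = 0.0167, adjusted p = 0.075). Without the 2 mice farthest from the median of Fasl, r was 0.87 and 0.68. The permutations took young irradiated replicates 2 and 5, whose arrays were nearly alike (median absolute difference 0.147), as 2 separate mice. The p-values of that group hold only if they were, and the relation was not tested with the 2 averaged. In old irradiated mice the relations included replicates 4 and 6, whose arrays lay far from the rest of that group. The other 7 relations did not pass, among them Bcl11b in unirradiated young mice (r = -0.34, exact p = 0.514, adjusted p = 0.752). In the 6 unirradiated old mice, described only, r was 0.92 for Bcl11b, 0.86 for Gzmm and -0.82 for S100a8.

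The unirradiated old mice were also compared as a group with the unirradiated young mice. No slide held arrays of both groups, so age and slide cannot be told apart in this comparison. Of 17441 genes, 8418 (48.3%) were higher and 2707 (15.5%) lower in old mice in limma, with all genes shifted by a median of 0.63. With scaling to the 75th percentile, which removed this shift (-0.02), the counts were 1560 and 4028. With close arrays averaged they were 7773 and 2577. Fasl averaged 3.67 in old and 2.10 in young mice, a difference of 1.57 (SE 0.498, adjusted p = 0.011) that missed the p threshold of 0.005. Gzmm was higher in old mice by 3.68 (SE 0.794, adjusted p = 0.00096) and Eomes by 1.99 (SE 0.482, adjusted p = 0.00209), whereas Bcl11b did not pass (-0.28, SE 0.324, adjusted p = 0.445). Replicates 1 and 6, the highest old mice in Gzmm and Eomes, were taken as separate mice. The p-values hold only if they were, and single genes are not given with these replicates averaged. None of the 7 CD8 T cell genes, Eomes among them, passed with scaling to the 75th percentile, with quantile normalization or with the median over bright probes. Of 28 mature neutrophil genes 24 were higher in old mice, and the median of the list exceeded that of all genes by 1.12. The T cell median differed from that of all genes by -0.12 and changed sign with the scaling (0.01 at the 75th percentile).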

How the data were processed

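RNA of 24 blood samples (6 mice in each of 4 groups, separate mice per the labels) was labelled with Cy3 and hybridised to Agilent mouse arrays. The authors deposited spot intensity values made by Feature Extraction 12.0.2, which subtracted background and did not scale arrays, and, as a further file, log2 values that the authors had filtered and normalized, used as an alternative (r = 0.995 to 1 with the log2 signal). Here non-uniform spots were left out, and the log2 signals were centred on the median of the 43020 non-control spots of each array. Probes non-uniform or not above background in at least 25% of arrays were dropped (24121 of 39429 kept). Each gene was read from its brightest probe on average (18704 genes), and a 1.5-fold difference in at least 20% of arrays left 17441. Precision is limited by there being 6 mice in a group.

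The mice were split at a Fasl level of 4. A gene was counted when the sets did not overlap and their means differed by at least 1. The limma tests used p under 0.005 and a Benjamini-Hochberg adjusted p under 0.05, two-sided, on all genes. They were also run on simulated data with independent noise for each gene, a setting without near-identical or outlying arrays. Named genes were the 3 markers, the 12 genes with the largest difference in each direction, up to 5 of the brightest genes of each of 27 lists, the 8 smallest slope p-values in each direction, and Actb and Gapdh. Genes named besides these, such as counted list members and T cell receptor segments, were chosen after their values were seen. Members, lists and rules were chosen with earlier results of these data known. Another 2 gene lists were made after the values were seen, and they were left out for that reason.

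Alternatives were scaling, background correction, filters, probe choice, slides, replicate blocks, covariates and leaving out arrays. Averaging close arrays (replicates 1 and 6, and young irradiated replicates 2 and 5, under a median absolute difference of 0.18), and taking replicate 2 or replicates 1 and 6 alone, were chosen after seeing the data. Replicate numbers did not pair the mice (correlation of deviations -0.60 to 0.58 over 36 pairs). Tools were R 4.3.3, limma 3.58.1, the data.table package (version 1.17.8), Python 3.11.15, pandas 2.3.3 and matplotlib 3.10.9.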

Additional observations from a re-analysis of the deposited data

Results flagged for a closer look

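Of 83 groups of values examined, 1 held a mouse far from the others: old irradiated replicate 5 had a Fasl level of 3.69, while the other 5 old irradiated mice were at 4.28 to 4.54. The gap was 0.692 of the range of the group. Chance flags about 1 in 20 groups in this way.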

How the results depend on the processing

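Under the other scalings every high-Fasl mouse stayed above every low-Fasl mouse in Fasl, although the limit of 4 was not applied again. The number of genes between the 2 sets depended on the rule. Counts of genes higher and lower in the high-Fasl mice (306 and 369) were 162 and 31 with normexp correction, 171 and 211 in the authors' table, 197 and 187 when every array had to be well above background, 478 and 914 within the slide of replicates 1 to 4, 812 and 637 within that of replicates 5 and 6, 2026 and 2048 for any difference, 22 and 22 for at least 2, 617 and 678 for replicate 2 alone, and 752 and 735 for replicates 1 and 6 alone. Leaving out 1 mouse gave 302 to 752 and 338 to 950. The number of lists with at least 1 counted gene was 20, 12 with normexp, and 19 to 25 leaving out 1 mouse. The median of the Fas and TNF family list (0.16) turned to -0.09 at the 75th percentile, -0.06 with quantile normalization, -0.05 over bright probes and 0.00 without replicate 2 (0.00 to 0.19 leaving out 1 mouse), and that of immediate early genes (-0.23) to 0.02 with normexp.

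Slope counts (467 rising, 158 falling) were 996 and 783 at the 75th percentile, 803 and 767 with quantile normalization, 905 falling over bright probes, 1635 and 1 with normexp, 195 and 90 in the authors' table, 307 and 66 with close arrays averaged and 2023 and 840 without old irradiated mice. They were 0 and 0 in limma without the dim-probe filter (1749 and 1568 at an unadjusted p under 0.05), without unirradiated young mice (1467 and 1101), without young irradiated mice (86 and 7), with the hepatocyte covariate (1093 and 383) and with the replicate block (1028 and 787). Leaving out 1 mouse gave 0 to 646 and 0 to 437, with 0 and 0 without young irradiated replicate 1, 4 or 6 (rising and falling at an unadjusted p under 0.05: 1457 and 795, 856 and 504, 1340 and 807), 290 and 81 without unirradiated young replicate 2, 259 and 84 without its replicate 3, and 282 and 45 without young irradiated replicate 2. Falling genes were 437 and 74 without unirradiated young replicates 1 and 6, 100 and 104 without young irradiated replicates 3 and 5, and 327, 262 and 72 without old irradiated replicates 3, 4 and 5. Age counts (8418 higher, 2707 lower) were 1560 higher at the 75th percentile, 2400 with quantile normalization, 1099 and 4221 over bright probes, 3211 and 1074 with normexp, 2979 higher in the authors' table and 1331 lower for probes well above background, with 7569 and 2588 under the replicate block and 7646 to 8608 and 2528 to 2808 leaving out 1 mouse. The cause of these changes was not tested.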
